A study of Homo sapiens with 2 samples.

Results

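The genes described here are 4 genes of the chromosome 9p21 locus (CDKN2A, CDKN2B, the antisense long non-coding RNA CDKN2B-AS1, and MTAP) and 5 genes of the p53 and RB pathways (MDM2, CDKN1A, GDF15, SESN1 and RB1). They were chosen by symbol, matched to Ensembl identifiers through GENCODE release 44, and all 9 were found among the 58735 genes of each count table. The RNA was the polyadenylated fraction from a human mammary epithelial line, MCF10a-Snail-ER, that stably carries the transcriptional repressor Snail fused to the estrogen receptor. The cells were kept with horse serum, EGF, hydrocortisone, cholera toxin, insulin, L-glutamine and antibiotics, and tamoxifen, which activates the fusion protein and so the epithelial-to-mesenchymal transition, was added at 100 nM for 1 day. One library was made with a Nanopore direct RNA kit, which reads native RNA strands, and the other with an Illumina TruSeq stranded mRNA kit, which reads fragments of amplified cDNA. No library of untreated or parental cells was analysed, so the only comparison is between the 2 libraries, with 1 library per platform and no replicate.

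The 9p21 locus encodes brakes on the cell cycle. CDKN2A gives rise to p16INK4a, an inhibitor of the kinases CDK4 and CDK6, and, from another first exon, to p14ARF, which binds MDM2 and so protects p53. CDKN2B encodes p15INK4b, a close relative of p16INK4a. The non-coding CDKN2B-AS1 runs antisense to CDKN2B, and MTAP encodes methylthioadenosine phosphorylase, the first enzyme of the methionine salvage pathway. The locus is known to be deleted in MCF10A. The transcription factor p53 induces CDKN1A (p21, an inhibitor of cyclin-dependent kinases), GDF15 (a secreted stress cytokine), SESN1 (a sestrin that restrains mTORC1 signalling) and MDM2, the ubiquitin ligase that in turn degrades p53. RB1 encodes the protein that holds E2F factors inactive until cyclin-dependent kinases phosphorylate it.

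The totals were 403235 counts by Nanopore and 191741714 by Illumina. A single count was worth 2.48 in counts-per-million (CPM) by Nanopore and 0.00522 CPM by Illumina, and 3 counts, taken as the limit that a count of 0 allows, were 7.44 CPM and 0.0156 CPM. Intervals below are exact 95% Poisson intervals and, like these limits, cover counting error only, since amplified reads are not independent molecules. All 6 basal epithelial markers were read, and their summed level was 3326 CPM (Nanopore) and 3017 CPM (Illumina), with KRT5 the highest. The 4 luminal epithelial markers summed to 684 and 559 CPM, most of it KRT8 and KRT18. EPCAM and CDH1 had 3 Nanopore counts each, with 4.02 and 24.2 CPM by Illumina. The 6 fibroblast markers summed to 27.3 and 33.8 CPM, most of it DCN, the 4 endothelial ones to 2.48 and 6.61 CPM, and the 5 immune ones to 12.4 and 11.1 CPM, nearly all of it CD14. The immune marker PTPRC had 0 Nanopore and 2 Illumina counts, and CD3E had 0 in both.

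No count was assigned to CDKN2A, CDKN2B or CDKN2B-AS1 in either library. CDKN2A (ENSG00000147889, 21967752 to 21995301 of chromosome 9, minus strand, hg38) had 0 Nanopore and 0 Illumina counts. The products of both first exons together thus had the limit of 0.0156 CPM by Illumina, with an exact Poisson interval of 0 to 0.0192 CPM. CDKN2B (ENSG00000147883, 22002903 to 22009305, minus strand) also had 0 and 0, and so did CDKN2B-AS1 (ENSG00000240498, 21994139 to 22128103, plus strand). Whether reads that match several genes were counted is not given in the sources used here. CDKN2A and CDKN2B are close paralogs, and 0.776% of the 50-base words of CDKN2B transcripts also occur in CDKN2A. Of the 50-base words of CDKN2A transcripts 12.9% occur in another gene, CDKN2B-AS1 included, and of those of CDKN2B-AS1 6.41% do. CDKN2A and CDKN2B-AS1 share 593 exonic bases on opposite strands, but 3292 exonic bases of CDKN2A and 18990 of CDKN2B-AS1 belong to no other annotated gene. A count of 0 in the Illumina library was not rare, at 21.7% of 19831 protein-coding genes and 59.9% of 14734 lncRNA genes. RNA counts cannot tell a deleted gene from a silent one.

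MTAP was the one member of the locus with any read. The gene (ENSG00000099810, 21802636 to 21937651 of chromosome 9, plus strand, hg38) had 14 Illumina counts, 0.0730 CPM (0.0399 to 0.123), and 0 Nanopore counts. At the Illumina share the Nanopore library would be expected to hold 0.0294 MTAP counts, so its 0 adds nothing at this depth. Of protein-coding genes, 7.39% had between 1 Illumina count and the count of MTAP. MTAP shares 460 exonic bases with ENSG00000264545, a lncRNA that starts at the same base on the same strand and had 3 Illumina counts. That lncRNA runs on across CDKN2A to 22029594 and also shares 162 exonic bases with CDKN2B-AS1. MTAP further shares 684 bases with the pseudogene ERVFRD-3 and 257 with the antisense lncRNA ENSG00000265194, both at 0 counts. Exons that belong to MTAP alone still cover 13126 bases. Its processed pseudogenes on chromosome 3, MTAPP1 and MTAPP2, had 0 counts in both libraries. Where within the gene the 14 reads lay is not recorded in a table of counts per gene.

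**Figure D1:**
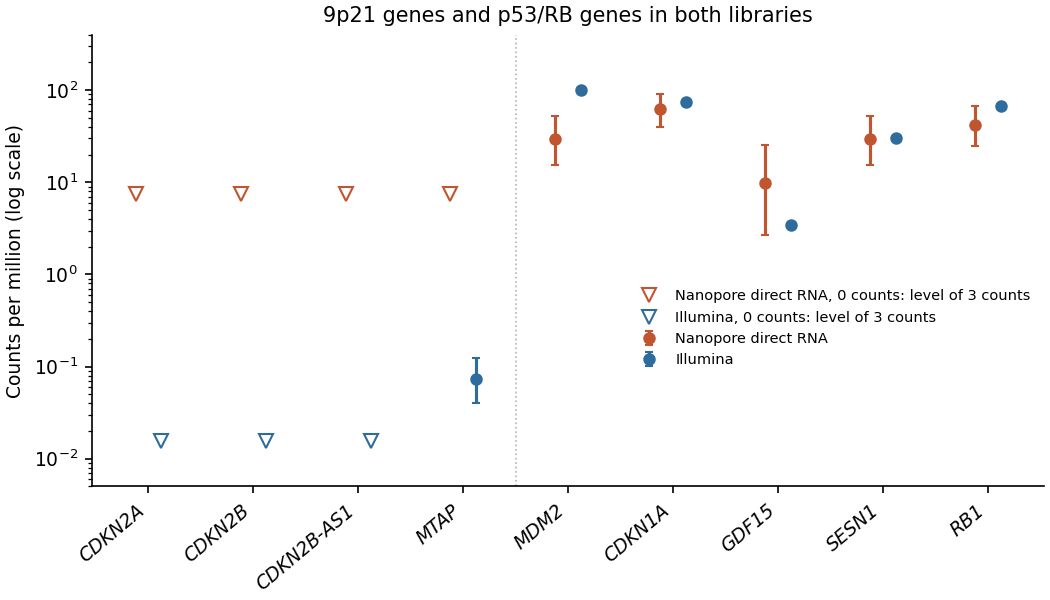
Level of the 9 genes in CPM (log scale) by Nanopore and Illumina, with exact 95% Poisson intervals. Open triangles stand at the level of 3 counts for genes with 0 counts. CDKN2A, CDKN2B and CDKN2B-AS1 have no count in either library and MTAP has 14 by Illumina, while the 5 p53 and RB genes lie between 3.48 and 100.1 CPM by Illumina.

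The neighbouring genes placed these counts along the chromosome. From the start of MTAP to the end of CDKN2B-AS1, a block of 325.5 kb, 14 annotated genes were in the tables, and 12 of them had no Illumina count. These 12, from the pseudogene TUBB8P1 to ENSG00000277653, follow each other without a break when genes are ordered by start, and had no count in either library. The whole block held 17 Illumina counts and 0 Nanopore counts. In the window reaching 3 Mb to either side there were 107 genes, of which 73 had no Illumina count.

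On the lower side, the nearest protein-coding gene with at least 1 Illumina CPM was KLHL9, a substrate adaptor of a ubiquitin ligase, 467.2 kb from the block. It had 3 Nanopore and 3406 Illumina counts (17.8 CPM). FOCAD, a gene for a focal adhesion protein, had 3 and 5503 counts (28.7 CPM), and MLLT3, a reader of acylated histones, had 1 and 455 (2.37 CPM). Farther out lay RPS6, the ribosomal protein eS6, with 866 and 374043 counts (1951 CPM). The last 3 on this side were DENND4C at 13.1 CPM, HAUS6 at 37.9 CPM and RRAGA, a GTPase of amino acid sensing, at 82.2 CPM. On the upper side only ELAVL2, an RNA-binding protein known from neurons, reached that level, with 5 Nanopore and 1621 Illumina counts (8.45 CPM), 1562 kb above the block. All 8 of these named genes had Nanopore reads.

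Between KLHL9 and ELAVL2 lay 2.35 Mb with 41 genes in the tables and 658 Illumina counts in all. Of the 10 protein-coding genes there, 6 had no Illumina count. No protein-coding gene in it reached 1 CPM, and the one gene that did was CLIC4P1, a processed pseudogene at 1.10 CPM. Some genes close to the block did have reads. On the lower side KHSRPP1, a processed pseudogene, had 0 Nanopore and 26 Illumina counts, MIR31HG, the host gene of miR-31, had 1 Nanopore and 140 Illumina counts, and IFNE, the epithelial type I interferon, had 1 and 63. On the upper side DMRTA1 had 0 and 105 counts (0.548 CPM).

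A stretch of silent genes was not particular to the block. The longest unbroken order of genes with no count in the window was in the type I interferon cluster, where 19 genes from IFNNP1 to IFNA5 had none in either library. Of 16 type I interferon genes in the window, 14 had no Illumina count. HACD4, between FOCAD and that cluster, had 1 Illumina count, and PLIN2, a lipid droplet coat protein, had 11. HACD4 lies next to FOCAD, and PLIN2 between HAUS6 and DENND4C, all 3 of which were above 1 CPM.

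**Figure D2:**
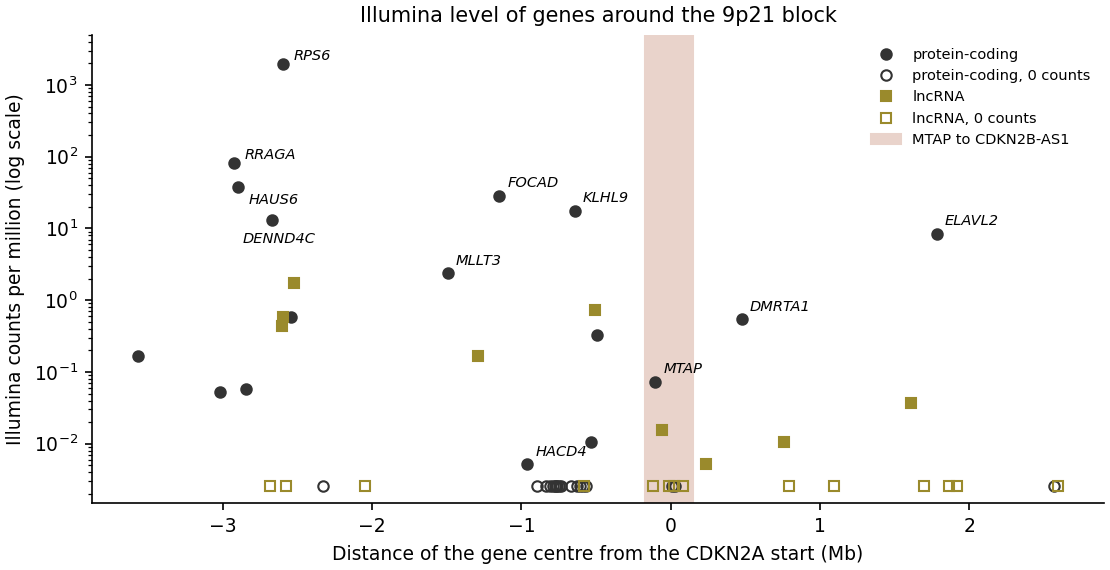
Illumina level in CPM (log scale) of protein-coding (circles) and lncRNA (squares) genes against the distance of the gene centre from the CDKN2A start in Mb. Open symbols are genes with 0 counts, drawn at the bottom. The shaded block from MTAP to CDKN2B-AS1 holds 17 counts, and KLHL9 (17.8 CPM) and ELAVL2 (8.45 CPM) are the nearest protein-coding genes with at least 1 CPM.

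The other genes of the route that MTAP serves were all read in both libraries. MTAP splits methylthioadenosine, a by-product of polyamine synthesis, and the following enzymes return its sulfur to methionine. Levels of different genes were compared per length, as Illumina counts divided by the length of 1 representative transcript and scaled to the same total as CPM (TPM). The 11 genes listed for the route include PRMT5 and its partner WDR77, which are not enzymes of it. These 11 ranged from 10.3 to 216 TPM, and MTAP stood at 0.0188 TPM. MRI1, the next enzyme after MTAP and the lowest of the 11, was 547-fold higher than MTAP (counting interval of the MTAP count, 326 to 1000.4). By Nanopore, the 5 highest of the route were ODC1 (181 CPM) and SRM (134 CPM), both of polyamine synthesis, SMS, the spermine synthase (131 CPM), MAT2A, the methionine adenosyltransferase (109 CPM), and ADI1, a later salvage enzyme (91.8 CPM). PRMT5, the arginine methyltransferase that methylthioadenosine inhibits, had 26 Nanopore counts, where 54.8 were expected at its Illumina share. WDR77 had 16, where 33.9 were expected. In the comparison of the libraries described below, 7 of the 11, PRMT5 and WDR77 among them, were called higher by Illumina (27.2% among all tested genes). Of the 11, 0 were called higher by Nanopore (20.2% among all tested genes). The log2 ratios ran from −1.51 (MAT2A) to 0.61 (APIP, a salvage enzyme), with a median of −0.71, beside −0.42 for all tested genes. Once the Illumina levels were divided by length, the median was 0.06, beside 0.49 for all tested genes. On that scale 2 of the 11, SMS and MAT2A, were called higher by Illumina, against 11.2% of tested genes, and 0 higher by Nanopore, against 33.2%.

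The remaining INK4 and CIP/KIP inhibitors showed which brakes of the same families had reads. CDKN2C (p18INK4c) had 9 Nanopore and 6000 Illumina counts, 48.7 TPM, which was 1966-fold higher than CDKN2A set at its limit of 3 Illumina counts. CDKN2D (p19INK4d) had 1 and 1198 counts, 6.80 TPM, 274-fold higher than CDKN2A set at that limit. So 2 of the 4 INK4 genes were read and the other 2, which lie on 9p21, were not. CDKN1B (p27) had 19 and 6221 counts, 20.9 TPM. CDKN1C (p57) had 11 and 660 counts, 3.01 TPM. Of the 3 that could be tested between the libraries, CDKN1C was called, as higher by Nanopore (background 20.2%). CDKN1C reached the mean of 5 CPM needed for the test only through its Nanopore level (27.3 CPM, against 3.44 by Illumina). On the TPM scale all 3 were called, CDKN1B and CDKN1C as higher by Nanopore (background 33.2%) and CDKN2C as higher by Illumina (background 11.2%).

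CDKN1A was the most abundant of the 5 p53 and RB members. The gene (ENSG00000124762, 36676460 to 36687337 of chromosome 6, plus strand, hg38) had 25 Nanopore counts, 62.0 CPM (40.1 to 91.5), and 14410 Illumina counts, 75.2 CPM (73.9 to 76.4) or 55.0 TPM. The Illumina level fell inside the Nanopore interval. It exceeded 90.1% of protein-coding genes in Illumina TPM. The log2 ratio of Nanopore over Illumina, on log2(CPM + 1), was −0.27, with an adjusted p of 0.512 (exact conditional binomial test, Benjamini-Hochberg over all 12414 genes whose mean CPM was 5 or more). The antisense lncRNA DINOL shares 4.87% of the exonic bases of CDKN1A and had 0 Nanopore and 25 Illumina counts.

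Of the p53 targets read here, CDKN1A and GDF15 carry a match to the p53 consensus near their start, and these matches are shown because both members are known direct targets. The search covered 3000 bases to either side of the start of the representative transcript, for the 20-base p53 consensus of a pair of adjoining decamers. Both 4-base cores (C, then 2 bases that are each A or T, then G) had to be whole, and up to 2 mismatches were allowed elsewhere. At a limit of 1 mismatch, neither gene had a match. The cores are in capitals, 5′ to 3′ on the gene's strand.
CDKN1A: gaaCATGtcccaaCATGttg
GDF15: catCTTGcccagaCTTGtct
The CDKN1A match lies at chr6:36676449-36676468 (hg38, plus strand), begins at −2265 bases from the representative start and overlaps the first 9 bases of the annotated gene, which are exonic. The GDF15 match lies at chr19:18385308-18385327 (hg38, plus strand), begins at −850 bases from the representative start and is intronic in the annotated gene. Such a match was present at 2.86% of 20033 protein-coding gene starts, and at 12 of the 27 other p53 targets listed, CCNG1, PMAIP1 and TNFRSF10B among them. The other 3 p53 and RB members had none, which says only that these letters are not in that window.

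MDM2 was the one member past the test when Illumina levels were left as CPM. It (ENSG00000135679, 68808177 to 68845544 of chromosome 12, plus strand, hg38) had 12 Nanopore counts, 29.8 CPM (15.4 to 52.0), against 19196 Illumina counts, 100.1 CPM (98.7 to 101.5). At its Illumina share, 40.4 Nanopore counts were expected. The Illumina level lay above the Nanopore interval. The log2 ratio was −1.72, with an adjusted p of 1.8e-06 by the exact binomial test (Benjamini-Hochberg). The Illumina library counts fragments, so a long transcript yields more of them, and the representative MDM2 transcript has 7490 bases. The part of length in the MDM2 ratio was not tested. With Illumina as TPM, 20.7 for MDM2, the log2 ratio was 0.50, with an exact adjusted p of 0.416, and over 6 alternatives the adjusted p ran from 1.8e-06 to 0.980. Of the exonic bases of MDM2, 14.7% are shared with other genes: an antisense lncRNA (ENSG00000257181) with 2 Nanopore and 2664 Illumina counts, a processed pseudogene (ENSG00000256664) with 2 Nanopore and 1130 Illumina counts, and the carboxypeptidase M gene, with 13 and 1259.

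SESN1 had nearly the same share in both libraries. It (ENSG00000080546, 108984309 to 109094846 of chromosome 6, minus strand, hg38) had 12 Nanopore counts, 29.8 CPM (15.4 to 52.0), and 5750 Illumina counts, 30.0 CPM (29.2 to 30.8), where 12.1 Nanopore counts were expected. The log2 ratio was −0.01 on the CPM scale, with an exact binomial adjusted p of 1 (Benjamini-Hochberg). Taken as TPM, the Illumina level was 8.21, the log2 ratio was 1.74 and the exact adjusted p 0.00122; over 6 alternatives it ran from 0.00122 to 1. The antisense lncRNA ENSG00000271730 shares 4.99% of its exonic bases and had 5 Nanopore and 339 Illumina counts.

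GDF15 was the rarest of the 5. It (ENSG00000130513, 18374731 to 18389176 of chromosome 19, plus strand, hg38) had 4 Nanopore counts, 9.92 CPM (2.70 to 25.4), and 667 Illumina counts, 3.48 CPM (3.22 to 3.75) or 4.49 TPM. On the log2 scale the libraries differed by 1.29 (exact binomial test, Benjamini-Hochberg adjusted p of 0.184), and the Illumina level lay inside the Nanopore interval. In Illumina TPM it exceeded 54.8% of protein-coding genes. None of its 50-base words occurred in transcripts of another gene.

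RB1 was read with counts of the same order as CDKN1A. It (ENSG00000139687, 48303744 to 48599436 of chromosome 13, plus strand, hg38) had 17 Nanopore counts, 42.2 CPM (24.6 to 67.5), and 12772 Illumina counts, 66.6 CPM (65.5 to 67.8) or 21.7 TPM. The Illumina level lay just inside the Nanopore interval, and the log2 ratio of −0.65 had an adjusted p of 0.108 in the exact binomial test (Benjamini-Hochberg). With Illumina as TPM it was 0.93, with an exact adjusted p of 0.0395, and over 6 alternatives the adjusted p ran from 0.0395 to 0.238. No exonic base of RB1 is shared with another gene.

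In order of Nanopore level, where each read is 1 RNA strand, the 5 stood as CDKN1A, RB1, then MDM2 and SESN1 with equal counts, then GDF15. The intervals of neighbours in this order overlapped in each case, and the Nanopore intervals of CDKN1A and GDF15 did not. In Illumina TPM the order was CDKN1A (55.0), RB1 (21.7), MDM2 (20.7), SESN1 (8.21) and GDF15 (4.49). The CPM order by Illumina, not divided by length, put MDM2 first.

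The call of 1 of the 5 members as higher by Illumina, and 0 as higher by Nanopore, stands against 27.2% and 20.2% of all 12414 tested genes. Past 2-fold were 1 member in each direction, MDM2 and GDF15, against 30.2% of tested genes higher by Illumina and 19.2% higher by Nanopore. The median log2 ratio of the 5 was −0.27, beside −0.42 for all tested genes. With Illumina as TPM, 2 of the 5 (SESN1 and RB1) were called higher by Nanopore, against 33.2% of 11690 tested genes, and 0 higher by Illumina, against 11.2%. On that scale 1 of the 5, SESN1, was past 2-fold higher by Nanopore, against 35.3% of tested genes, and 0 were past 2-fold higher by Illumina, against 11.5%. This test compares the reads of these 2 libraries and not the platforms in general.

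The genes that control p53 were all read, with lower Nanopore than Illumina shares. Of the 9 controllers, 8 passed the test as higher by Illumina (background 27.2%) and 0 as higher by Nanopore (background 20.2%). The median log2 ratio was −1.59, beside −0.42 for all tested genes. The lowest was ATM, the DNA damage kinase, at −2.42 (2 Nanopore counts, 12.5 expected), and HIPK2, a p53 kinase, was the one not called, at −0.52. USP7, the deubiquitinase of p53 and MDM2, had 23 counts where 54.7 were expected, CHEK1, a checkpoint kinase, 14 where 27.1 were, and TP53BP1, a repair scaffold, 9 where 27.9 were. With Illumina as TPM the median was 0.54, beside 0.49 for all tested genes. Of 8 tested, 1 was called higher by Nanopore, HIPK2 (background 33.2%), and 0 higher by Illumina (background 11.2%).

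**Figure D3:**
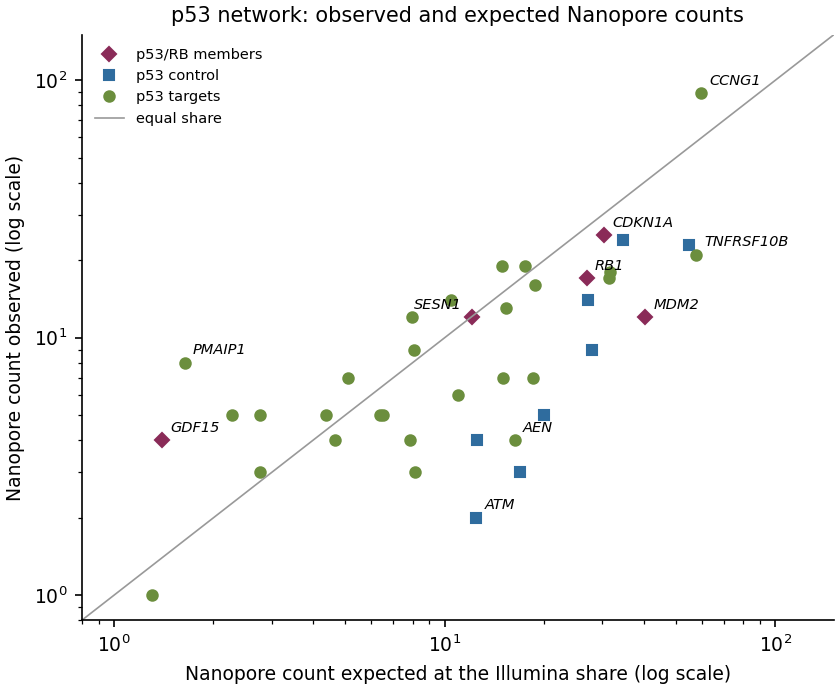
Nanopore counts observed against those expected at each gene's Illumina share (both axes log) for the 5 p53 and RB members, 8 of the 9 p53 control genes and 27 p53 targets. The line marks equal shares: MDM2 lies below it (12 against 40.4), CDKN1A and SESN1 near it, and GDF15 above it (4 against 1.40).

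The other 27 p53 targets were all detected in both libraries, from 1 to 89 Nanopore counts and from 3.23 to 147.5 Illumina CPM. Together they held 326 Nanopore counts, where 387 were expected at their Illumina shares. CCNG1, cyclin G1, was the highest by Nanopore at 221 CPM (89 counts, 59.5 expected), with a log2 ratio of 0.58. After it came TNFRSF10B, the death receptor DR5, at 52.1 CPM, PHLDA3, an AKT repressor, and TRIAP1, an apoptosis inhibitor, both at 47.1 CPM, and BAX, the pro-apoptotic pore former, at 44.6 CPM. Of the 26 tested, 2 were called higher by Nanopore (background 20.2%), CCNG1 and PMAIP1, and 5 higher by Illumina (background 27.2%). The 5 were AEN, TNFRSF10B, XPC, TP53I3 and BAX.

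PMAIP1, the pro-apoptotic protein NOXA, had the highest log2 ratio of the list, 2.04, with 8 Nanopore counts where 1.64 were expected. It reached the mean of 5 CPM only through its Nanopore level (19.8 CPM, against 4.06 by Illumina). AEN, an apoptosis nuclease, had the lowest, −1.92, with 4 counts where 16.3 were expected. The median log2 ratio of the 26 was −0.21, beside −0.42 for all tested genes. On the TPM scale the median was 0.87, beside 0.49, with 7 called higher by Nanopore (background 33.2%) and 2, BAX and TP53I3, higher by Illumina (background 11.2%).

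Downstream of the INK4 brakes, the listed cyclins, kinases, E2F factors and other genes of the RB axis were all read by Illumina, and all but E2F2 by Nanopore. E2F2 had 0 Nanopore counts, where 3.56 were expected, with a limit of 7.44 CPM as set above and an exact Poisson interval of 0 to 9.15 CPM. Its Illumina level, 8.82 CPM, lay inside that interval. The mean CPM of E2F2 was under the minimum for the test, so its libraries were not compared by it. CDK4, the target of p16INK4a, had 43 Nanopore counts (107 CPM) and 159 TPM by Illumina. TFDP1, the partner of E2F factors, had 44 counts, CCND3, cyclin D3, had 40, and E2F4, a repressive E2F, had 20. Of the 16 tested genes of this axis, 8 were called higher by Illumina (background 27.2%), with TFDP2 lowest at −2.24, and 2 higher by Nanopore (background 20.2%), E2F5 and CCNE2. The median log2 ratio was −0.94, beside −0.42 for all tested genes. Per length it was 0.18, beside 0.49, with 2 called higher by Nanopore (background 33.2%) and 2 higher by Illumina (background 11.2%). Cyclin D1, CCND1, had 15 Nanopore counts where 69.7 were expected, a log2 ratio of −2.19 on the CPM scale. With Illumina as TPM its log2 ratio was −0.75 and it was not called (exact binomial test, adjusted p of 0.0756).

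**Figure D4:**
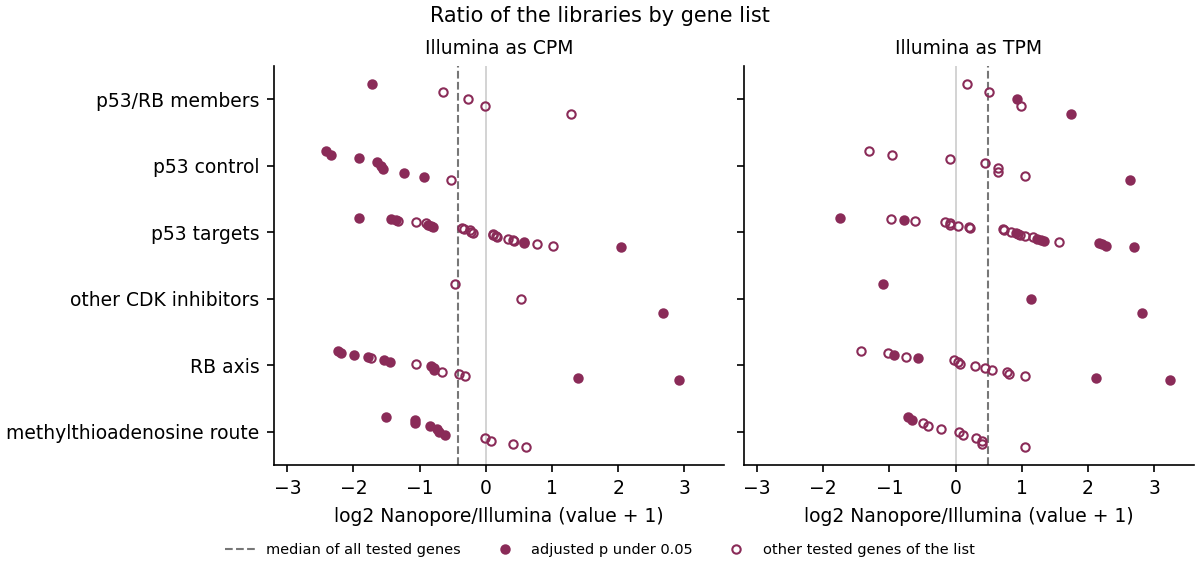
log2 Nanopore/Illumina ratio of each tested gene, by list, with Illumina as CPM (left) and as TPM by representative transcript length (right). Filled points have an adjusted p under 0.05 and the dashed line is the median of all tested genes, −0.42 on the left and 0.49 on the right. The p53 control genes lie below 0 on the left, with a median of −1.59, and on both sides of 0 on the right.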

How the data were processed

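Polyadenylated RNA of one cell line was counted per gene in 2 libraries, 1 per platform. The authors deposited raw counts per Ensembl gene, whole numbers without normalization, per the file headers and values. The submitters' processing notes name minimap2 2.11-r797, HISAT2 2.1.0, featureCounts and the build hg38. Annotation, counting options, strand use and the handling of reads shared by genes are not given in the sources used here, so genes that overlap or resemble others, on either strand, are uncertain. Of 58735 identifiers, 58207 matched GENCODE release 44 (hg38), which gave names, positions and lengths. Counts were divided by library totals (CPM). Ratios are log2(CPM + 1), so ratios of low genes are understated. No count model across replicates was used, because each platform has 1 library. A gene under 5 CPM in 1 library entered the test below only if the other library raised its mean. A two-sided exact conditional binomial test (scipy 1.17.1) covered 12414 genes (mean CPM of 5 or more). Its p-values were adjusted over all of these by Benjamini-Hochberg, with a threshold of 0.05. It was tested on simulated data. Illumina TPM used 1 representative transcript (MANE Select, otherwise Ensembl canonical). The members, gene lists and tests were chosen with earlier results of these data known. The lists are: 9 p53 control genes, 27 p53 targets, 4 other CDK inhibitors and 17 genes of the RB axis. Another holds 11 genes of the methylthioadenosine route, with PRMT5 and WDR77 counted in. The rest are markers of basal and luminal epithelium, fibroblasts, endothelium and immune cells. All 9 members are named. In each list the 5 highest by Nanopore, the highest and lowest ratio and genes with 0 Nanopore counts are named; other names were chosen after their values were seen. Some items are not reported here. Up to 2 mismatches were allowed in the p53 consensus after a limit of 1 gave 0 members (0.499% of starts). Alternatives were pseudocounts of 0.1 and 5 CPM, TMM (edgeR 4.0.16) and median-ratio scaling, Illumina TPM by union exonic or representative length, other filters, genes without overlap, and minimums of 3 and 10 counts for detection.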

Additional observations from a re-analysis of the deposited data

How the results depend on the processing

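The ratios of the 5 p53 and RB members between the libraries rest on 4 to 25 Nanopore counts each, and no value has a replicate. No paired analysis was possible because each platform has 1 library. Division of Illumina counts by length raised the median log2 ratio of all tested genes by 0.82 (union exonic length) or 0.91 (representative transcript), against 0.097 for TMM and 0.14 for median-ratio scaling. By union length the log2 ratio of MDM2 was −0.13 and no longer past the test, that of SESN1 became 1.34 and that of RB1 0.57. By representative length MDM2 became 0.50, CDKN1A 0.17, SESN1 1.74 and RB1 0.93. SESN1 also became 0.075 under TMM and 0.11 under median-ratio scaling. The sign of GDF15 held under all 6 alternatives, from 0.82 to 1.49. Of the 5 p53 and RB members, the number called higher by Nanopore rose from 0 to 1 by union and 2 by representative length, and the number higher by Illumina fell from 1 to 0 under both and among genes that overlap no other gene, where all 5 drop out of the test. Of the p53 targets, the number called higher by Nanopore went from 2 to 6 and 7 by these lengths. It went to 1 with a mean of at least 20 CPM, a filter that PMAIP1 (19.8 CPM by Nanopore, 4.06 by Illumina) does not pass. The number higher by Illumina went from 5 to 2 by either length, to 3 under median-ratio scaling and to 2 among genes without overlap. That last setting tests 2810 genes in place of 12414, so targets can leave the test there without a changed ratio. With at least 10 counts required, Nanopore detected 10 of the 27 p53 targets.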

Other observations

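Of the genes called higher by Nanopore around these pathways, 2 share exonic sequence with a gene on the opposite strand that had nearly the same Nanopore count. E2F5 had 52 Nanopore counts where 6.52 were expected, a log2 ratio of 2.92, and RBIS, which shares 997 exonic bases with it, also had 52. CCNE2 had 19 Nanopore counts where 6.97 were expected, and INTS8, which shares 1629 exonic bases with it, had 20. The part of such overlap in these ratios was not tested. CDKN1C, CCNG1 and PMAIP1 were also called higher by Nanopore, and no annotated gene overlaps the body of any of the 3. CDKN1C and PMAIP1, under 5 CPM by Illumina, entered the test only through their Nanopore levels. CDKN1C, the imprinted inhibitor p57, had 11 Nanopore counts where 1.39 were expected, a log2 ratio of 2.67 with an adjusted p of 3.0e-06 by the exact binomial test (Benjamini-Hochberg).

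The protein-coding gene nearest to each p53 or RB member in the plane of log2(CPM + 1) of both libraries, by Euclidean distance over these 2 libraries and among 19831 genes, was NFIC for MDM2, CAPZA2 for CDKN1A, LIPT1 for GDF15, SAMD1 for SESN1 and MRPS12 for RB1. These distances ran from 0.00024 (SESN1) to 0.012 (GDF15).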
